A study of Mus musculus with 15 samples.

Results

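The genes described here are 39 genes of the heart's extracellular matrix and of the TGF-beta pathway, chosen by name from the 27845 gene names on the array. They comprise 14 collagen chains, 8 other matrix proteins, 3 crosslinking enzymes, 6 chaperones and hydroxylases of collagen, and 8 ligands, receptors, signalling proteins and targets of TGF-beta. Each gene was read at its brightest probe, by the mean heart signal over all arrays. All 39 gave a heart signal well above background on all 15 arrays, none was saturated, and all were tested.

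The study asked what rosiglitazone, an agonist of the nuclear receptor PPARgamma given as an insulin sensitizer, did to the heart of a mouse model of type 2 diabetes. Whole hearts of 3 groups of 5 mice on the C57BL/KLS background were profiled, 1 heart to an array. Treated db/db mice were homozygous for leprdb, the mutation of the leptin receptor, and ate chow mixed with rosiglitazone at 5 mg/kg/day for 4 months. Untreated db/db mice had the same genotype and ate normal chow for the same 4 months. The db/+ mice were nondiabetic littermates with 1 leprdb and 1 wild-type allele, so that every mouse in the study carried at least 1 copy of leprdb, and db/db mice lacked the normal receptor in all tissues and not in the heart alone. The age and sex of the mice were not given in the sources used here. Heart RNA was labelled with Cy5 and set against a universal mouse reference RNA labelled with Cy3. A level in the text below is the log2 ratio of heart to reference for 1 probe, which is comparable between hearts and not between genes, and a log2 difference is the difference between the mean levels of 2 groups.

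The fibrillar collagens form the tensile network between cardiomyocytes. Their chains are hydroxylated, folded with the help of chaperones in the endoplasmic reticulum, trimmed outside the cell and crosslinked by lysyl oxidases, while basement membrane and other nonfibrillar collagens, glycoproteins and small proteoglycans organise the network around cells and vessels. TGF-beta ligands signal through a pair of receptor kinases to Smad3, and in cardiac fibroblasts this raises the synthesis of collagen and of other matrix proteins, whereas Smad7 is induced by the pathway and inhibits it.

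Probes with a heart signal well above background made up 66.4 to 71.7% on treated, 61.4 to 75.6% on untreated and 56.4 to 71.6% on db/+ arrays. All 10 cardiomyocyte markers were above background, with mean levels of 6.08 to 6.51 in treated, 4.71 to 6.90 in untreated and 3.18 to 7.40 in db/+ hearts, the lowest in db/+ replicate 2 and the highest in db/+ replicate 3. Untreated replicate 2 had the highest mean of the hepatocyte markers, 6.17. With db/+ replicate 3 and untreated replicate 2 left out together, Serpinh1 and Tgfb3 were not called in untreated hearts (adjusted p = 0.061 and 0.076) and Tgfb3 was not called in treated hearts (adjusted p = 0.067). The arrays of treated replicates 3 and 4 differed less in their heart channel (median absolute deviation 0.14, against 0.27 to 0.62 in other pairs of a group) than did the common reference channel in 100 of 105 array pairs, so they were averaged and counted as 1 sample. This left 14 samples, of which 4 were treated, and the p-values measure the spread between these hearts. The treated values below therefore name replicates 1, 2, 3 with 4, and 5, in that order. The arrays lay on 4 slides. Slide 1 held db/+ replicates 1 to 4, and slide 2 held untreated replicates 1 to 3 with db/+ replicate 5. Slide 3 held treated replicates 1 and 2 with untreated replicates 4 and 5, and slide 4 held treated replicates 3 to 5. Differences within a slide rest on slide 2 for untreated against db/+ hearts, on slide 3 for treated against untreated hearts, and on the sum of both for treated against db/+ hearts.

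Against db/+ hearts, 5 of the 39 genes differed in untreated db/db hearts at an adjusted p under 0.05 (limma, with Benjamini-Hochberg adjustment over all tested probes). Fkbp10, a chaperone of collagen folding, was higher. Serpinh1, the collagen chaperone HSP47, the ligands Tgfb2 and Tgfb3, and Col6a3, a chain of type VI collagen, were lower. Over all 27593 tested probes, 4.37% were called higher and 3.39% lower in this comparison, against 2.56% (1 of 39) and 10.3% (4 of 39) of the genes described here. In treated db/db hearts, 2 genes were higher than in db/+ hearts, Fkbp10 and Col8a1, a short-chain collagen of vessel walls, and Serpinh1 and Tgfb3 were lower. That is 5.13% in each direction, beside 4.49% of all probes higher and 4.21% lower. None of these calls passed with slide as a fixed block (adjusted p = 0.27 to 1), and each kept its sign in the differences within slides. Under that block few of all 27593 probes passed. In untreated against db/+ hearts 18 were called higher and 16 lower, and in treated against db/+ hearts 0 and 4. Both comparisons share the db/+ hearts, and in whole hearts fewer cells of a type and less RNA per cell cannot be told apart. With normexp background correction and loess in place of the deposited ratios, the calls over all probes were split 1023 higher and 452 lower in treated against db/+ hearts (1239 and 1162 with the deposited ratios) and 2109 higher and 947 lower in untreated against db/+ hearts (1206 and 935). Between treated and untreated db/db hearts none of the 39 genes passed, as 0% of all probes did, and 6 of the 39 (15.4%) had an unadjusted p under 0.05 where 8.78% of all probes had one.

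The median log2 difference of the 39 genes was -0.10 for untreated against db/+ hearts, beside 0.01 for all probes, with 27 genes below 0 and 12 above. It was 0.06 for treated against untreated hearts, with 23 above and 16 below, beside -0.01 for all probes, and -0.05 for treated against db/+ hearts, with 18 above and 21 below, beside 0.01. The called genes did not share 1 direction.

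**Figure D1:**
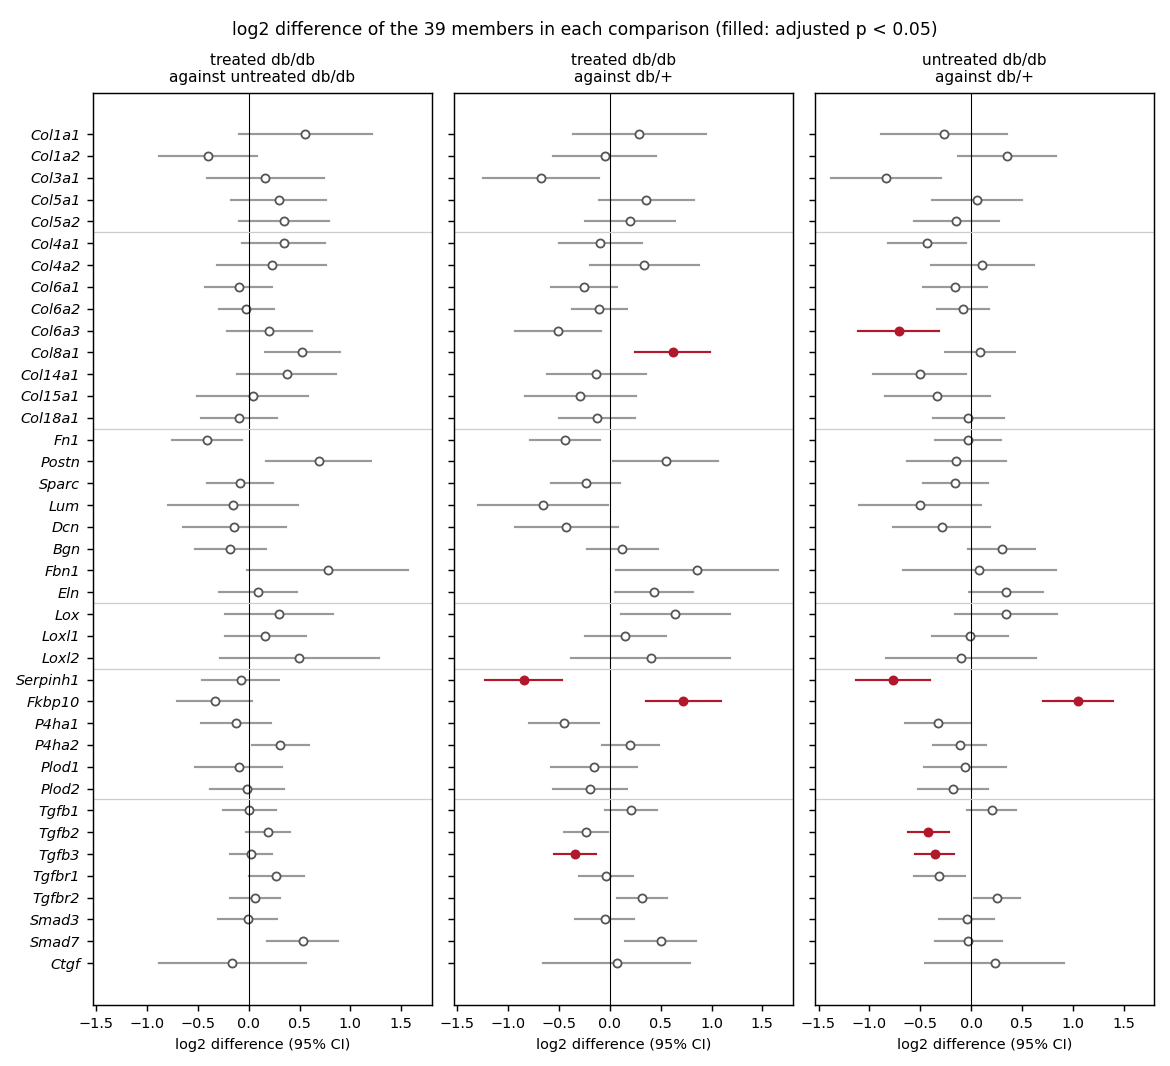
log2 difference (horizontal axis, with its 95% confidence interval) of each of the 39 genes in the 3 comparisons, ordered by role from fibrillar collagens at the top to TGF-beta genes at the bottom. Filled red points have an adjusted p under 0.05: none for treated against untreated db/db hearts, 4 for treated db/db against db/+ hearts and 5 for untreated db/db against db/+ hearts.

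Promoters were at hand from RefSeq (build GRCm38.p6) for 24 of the 39 genes, among them 4 of the 6 called genes. They are shown because Serpinh1, Tgfb2 and Col6a3 were lower together in untreated hearts, with Col8a1, higher in treated hearts, beside them. Each line holds the 250 bases before the start of transcription, 5′ to 3′ on the gene's own strand, which is the minus strand for all 4. Capitals mark the Smad element, CAGAC or its reverse complement GTCTG, which Smad3 can bind.
Serpinh1 (chr7:99353240-99353489): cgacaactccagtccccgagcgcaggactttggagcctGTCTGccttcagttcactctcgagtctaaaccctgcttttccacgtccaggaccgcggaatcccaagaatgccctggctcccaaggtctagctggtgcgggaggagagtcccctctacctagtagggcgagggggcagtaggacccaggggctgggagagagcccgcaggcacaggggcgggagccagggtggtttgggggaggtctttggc
Tgfb2 (chr1:186705990-186706239): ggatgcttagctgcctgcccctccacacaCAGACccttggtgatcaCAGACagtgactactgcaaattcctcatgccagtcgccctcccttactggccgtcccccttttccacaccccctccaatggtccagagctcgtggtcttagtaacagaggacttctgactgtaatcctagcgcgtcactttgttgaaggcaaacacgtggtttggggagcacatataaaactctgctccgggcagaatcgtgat
Col6a3 (chr1:90843972-90844221): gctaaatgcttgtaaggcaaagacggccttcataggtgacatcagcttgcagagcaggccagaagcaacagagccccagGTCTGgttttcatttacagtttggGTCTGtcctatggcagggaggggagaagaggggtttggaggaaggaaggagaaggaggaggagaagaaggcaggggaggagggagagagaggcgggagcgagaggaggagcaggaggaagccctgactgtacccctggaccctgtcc
Col8a1 (chr16:57754738-57754987): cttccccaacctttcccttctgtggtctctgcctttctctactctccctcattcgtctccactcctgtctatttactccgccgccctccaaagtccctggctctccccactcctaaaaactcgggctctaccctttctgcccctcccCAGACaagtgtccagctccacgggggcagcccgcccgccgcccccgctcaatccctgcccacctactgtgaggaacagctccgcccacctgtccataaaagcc
The Smad element occurred 1 time in the Serpinh1 promoter, 2 times in that of Tgfb2, 2 times in that of Col6a3 and 1 time in that of Col8a1. Of all 32851 promoters of this length 42.2% held it on either strand, and so did 12 of the 24 promoters found. The GC box, GGGCGG or CCGCCC, was in 32.7% of all promoters and in 15 of the 24 promoters found. It occurred 4 times in the Col8a1 promoter, 1 time in that of Serpinh1 and 0 times in those of Tgfb2 and Col6a3. A TATA box, TATAAA or TTTATA, was in 12.4% of all promoters and, of these 4, in that of Tgfb2 alone, which also held the CCAAT box (CCAAT or ATTGG, 33.8% of all). Of the 24 promoters found, 3 held the TATA box and 7 the CCAAT box. A match is a description of the letters and not a site of binding.

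Of the TGF-beta ligands, Tgfb2 and Tgfb3 were lower in untreated db/db hearts and Tgfb1 was not called. Tgfb2 had levels of -1.24, -1.02, -1.16 and -0.90 in treated, -1.19, -1.16, -1.35, -1.25 and -1.4 in untreated and -0.76, -0.72, -0.77, -1.03 and -0.96 in db/+ hearts. All untreated hearts lay below all db/+ hearts, and treated hearts overlapped both groups. The log2 difference between untreated and db/+ hearts was -0.42 (SE 0.09, 1.34-fold lower, adjusted p = 0.018). Treated hearts were -0.23 from db/+ hearts (adjusted p = 0.15), with replicate 3 alone for the averaged sample because the spot of replicate 4 was marked as an outlier. The probe of Tgfb2 lies at chr1:188324443-188324502 in build mm8.

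Tgfb3 had levels of -0.74, -0.83, -1.06 and -1.09 in treated, -1.08, -1.02, -0.75, -0.99 and -0.92 in untreated and -0.62, -0.60, -0.63, -0.52 and -0.59 in db/+ hearts. The db/+ hearts were within a narrow band above every heart of both db/db groups. The log2 difference from db/+ was -0.34 in treated hearts (SE 0.10, adjusted p = 0.043) and -0.36 in untreated hearts (SE 0.09, adjusted p = 0.03). These calls lie close to the threshold. In treated hearts the adjusted p was 0.051 to 0.13 without any 1 of db/+ replicates 1 to 5, untreated replicates 2, 4 and 5 or treated replicates 2 and 5, and in untreated hearts it was 0.053 to 0.071 without db/+ replicate 4 or untreated replicate 1, 2, 4 or 5. With normexp background correction and loess the differences were -0.19 (adjusted p = 0.21) in treated and -0.25 (adjusted p = 0.081) in untreated hearts. The probe lies at chr12:86945957-86946016.

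Of all probes, 4.33% had untreated hearts wholly above db/+ hearts and 3.47% wholly below, and of the 39 genes Fkbp10 was wholly above and Tgfb2 and Tgfb3 wholly below. Tgfb1 averaged -0.22 ± 0.09 in treated (SD, n = 4), -0.23 ± 0.09 in untreated and -0.43 ± 0.25 in db/+ hearts (SD, n = 5 each), and its difference from db/+ hearts was 0.21 in treated (adjusted p = 0.29) and 0.20 in untreated hearts (adjusted p = 0.28).

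The receptors and signalling proteins did not pass in any comparison. Tgfbr2, the receptor kinase that binds the ligand, had levels of -0.34, -0.07, -0.13 and -0.30 in treated, -0.44, -0.03, -0.20, -0.37 and -0.33 in untreated and -0.32, -0.59, -0.76, -0.56 and -0.42 in db/+ hearts. Only 1 db/+ heart, replicate 1, reached into the treated range. The log2 difference was 0.32 for treated (adjusted p = 0.096) and 0.26 for untreated against db/+ hearts (adjusted p = 0.15). The mean over the tested probes of the gene passed in treated hearts (0.58, adjusted p = 0.04). That mean gives equal weight to a dim probe, with a heart signal of 130.5 against 17160 and above background on 12 of 15 arrays. The dim probe alone differed by 0.84 (adjusted p = 0.093). Tgfbr1, its partner kinase, averaged 0.70 ± 0.09 in treated (SD, n = 4), 0.43 ± 0.18 in untreated and 0.74 ± 0.22 in db/+ hearts (SD, n = 5 each). Smad3, the transcription factor they activate, differed by -0.05 between treated and db/+ hearts and by -0.04 between untreated and db/+ hearts (95% confidence interval -0.31 to 0.23). With normexp and loess these Smad3 differences were -0.31 (adjusted p = 0.14) and -0.35 (adjusted p = 0.076), and the mean over its probes turned the first to 0.31 (adjusted p = 0.3).

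Smad7, the inhibitor that the pathway induces, had the smallest p of the 39 genes between treated and untreated db/db hearts (unadjusted p = 0.006, adjusted p = 0.43). Its levels were 0.17, 0.18, 0.08 and 0.40 in treated hearts, against -0.13, -0.08, -0.24, -0.49 and -0.67 in untreated and -0.01, -0.0028, -0.74, -0.40 and -0.32 in db/+ hearts. All treated hearts were above all untreated and all db/+ hearts. The log2 difference was 0.53 from untreated hearts (95% confidence interval 0.18 to 0.88) and 0.50 from db/+ hearts (adjusted p = 0.071), and within slide 3 treated hearts were 0.75 above untreated hearts. The db/+ difference passed without db/+ replicate 1 (0.57, adjusted p = 0.046). It also passed with treated replicates 3 and 4 as separate samples (0.48, adjusted p = 0.047), which counts 2 near-identical arrays as 2 hearts. It did not pass with slide as a fixed block (0.92, adjusted p = 0.85) or with replicate number as a block (0.47, adjusted p = 0.13). Ctgf, a matricellular protein induced by TGF-beta, ran from 0.50 to 0.92 in treated, from 0.04 to 1.75 in untreated and from -0.05 to 1.30 in db/+ hearts.

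Groups that did not overlap were counted for treated hearts too. Against untreated hearts, 2.08% of all probes were wholly higher in treated hearts and 2.5% wholly lower, and of the 39 genes Smad7, P4ha2 and Col4a1 were wholly higher and Fn1 wholly lower. Against db/+ hearts, 7.61% of all probes were wholly higher and 6.98% wholly lower. There Col8a1, Eln, Fkbp10 and Smad7 were wholly higher and Col3a1, Fn1, Serpinh1 and Tgfb3 wholly lower, which is 10.3% of the 39 genes in each direction. The margin was narrow for Serpinh1 (highest treated heart -1.139, lowest db/+ heart -1.134) and for Fn1 (-3.174 and -3.163).

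The collagen chaperones held the largest called differences, and they went in opposite directions. Fkbp10, a prolyl isomerase of the endoplasmic reticulum that takes part in collagen folding and crosslinking, had levels of -1.47, -1.75, -1.28 and -1.52 in treated, -0.85, -0.97, -1.35, -1.63 and -1.05 in untreated and -1.93, -2.1, -2.61, -2.29 and -2.19 in db/+ hearts. Every db/db heart, treated or untreated, was above every db/+ heart. Fkbp10 was 1.65-fold higher in treated than in db/+ hearts (log2 difference 0.72, SE 0.17, adjusted p = 0.022) and 2.08-fold higher in untreated than in db/+ hearts (1.05, SE 0.16, adjusted p = 0.002). Treated hearts were -0.33 from untreated hearts (95% confidence interval -0.70 to 0.03, adjusted p = 0.61). The adjusted p against db/+ was 0.058 without treated replicate 1 and 0.056 without treated replicate 5. The gene was read with 1 probe, at chr11:100240771-100240830.

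Serpinh1, the chaperone that binds folded procollagen until it leaves the endoplasmic reticulum, had levels of -1.14, -1.21, -1.64 and -1.43 in treated, -1.11, -1.45, -1.15, -1.42 and -1.25 in untreated and -1.13, -0.43, -0.10, -0.51 and -0.36 in db/+ hearts. The db/+ replicate 1, at -1.13, stood with the db/db hearts, and the other db/+ hearts were above all of them. Serpinh1 was 1.8-fold lower in treated than in db/+ hearts (log2 difference -0.85, SE 0.18, adjusted p = 0.013) and 1.7-fold lower in untreated than in db/+ hearts (-0.77, SE 0.17, adjusted p = 0.016). It passed in both comparisons with any 1 array left out, and in untreated hearts it did not pass with db/+ replicate 3 and untreated replicate 2 left out together (-0.62, adjusted p = 0.061). Its probe lies at chr7:99219542-99219603.

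**Figure D2:**
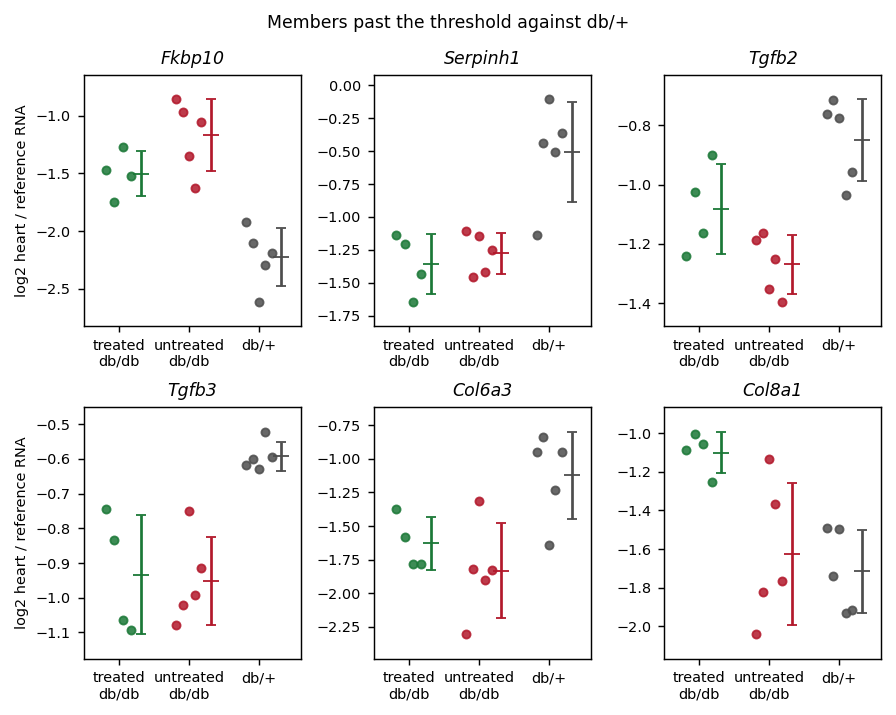
Level of each sample (vertical axis, log2 ratio of heart to reference) for the 6 genes called against db/+ hearts, with the mean and SD of each group beside its points. Treated replicates 3 and 4 are 1 averaged point. Fkbp10 was higher and Tgfb3 lower in every heart of both db/db groups than in every db/+ heart, while 1 db/+ heart at -1.13 stood among the db/db hearts for Serpinh1.

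The prolyl and lysyl hydroxylases, which modify the chains before folding, did not pass. P4ha1, a catalytic subunit of prolyl 4-hydroxylase, had levels of -1.8, -1.82, -1.77 and -1.75 in treated, -1.79, -1.83, -1.7, -1.6 and -1.4 in untreated and -1.93, -1.17, -0.99, -1.17 and -1.42 in db/+ hearts. Again db/+ replicate 1 was the lowest of its group, below all other hearts. The difference from db/+ was -0.45 in treated (adjusted p = 0.091) and -0.33 in untreated hearts (adjusted p = 0.19), and without db/+ replicate 1 both passed (-0.60 with adjusted p = 0.0084, and -0.48 with adjusted p = 0.018). P4ha2, the other catalytic subunit, had levels of -0.96, -1.16, -0.99 and -1.23 in treated, -1.27, -1.54, -1.27, -1.41 and -1.49 in untreated and -1.32, -0.95, -1.5, -1.56 and -1.11 in db/+ hearts. All treated hearts were above all untreated hearts, by 0.31 in the mean (95% confidence interval 0.04 to 0.59, adjusted p = 0.52), and the db/+ hearts spanned both ranges. The lysyl hydroxylases Plod1 and Plod2 had differences between -0.19 and -0.02 in the 3 comparisons, and with normexp and loess Plod2 was -0.41 in treated and -0.44 in untreated against db/+ hearts (adjusted p = 0.14 and 0.083).

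None of the lysyl oxidases, which crosslink collagen and elastin outside the cell, passed. Lox had levels of -4.67, -4.44, -4.11 and -4.24 in treated, -5.07, -4.67, -4.64, -4.64 and -4.3 in untreated and -5.75, -4.86, -4.37, -4.66 and -5.42 in db/+ hearts. The treated hearts lay in the upper part of the range and overlapped both other groups, with a log2 difference of 0.64 from db/+ hearts (95% confidence interval 0.11 to 1.18, adjusted p = 0.12). With normexp and loess the direction turned, to -0.48 in treated and -0.75 in untreated against db/+ hearts (adjusted p = 0.48 and 0.23). Loxl2 had levels of -0.66, 0.09, 0.06 and -0.58 in treated, -1.54, -1.04, 0.64, -0.71 and -1.22 in untreated and -0.29, -0.49, -1.26, -0.76 and -0.57 in db/+ hearts. Untreated replicate 3 was the highest heart of all and untreated replicate 1 the lowest. The difference between treated and untreated hearts was 0.50 (95% confidence interval -0.29 to 1.28). Loxl1 averaged -0.83 ± 0.19 in treated (SD, n = 4), -0.99 ± 0.36 in untreated and -0.98 ± 0.27 in db/+ hearts (SD, n = 5 each).

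No fibrillar collagen passed in any comparison. Col3a1, the chain of type III collagen, came closest. Its levels were -2.13, -1.79, -2.18 and -2.34 in treated, -2.72, -2.67, -1.13, -2.54 and -2.32 in untreated and -1.33, -1.16, -1.54, -1.58 and -1.56 in db/+ hearts. All treated hearts and 4 of the 5 untreated hearts lay below every db/+ heart, and untreated replicate 3, at -1.13, lay above them. The log2 difference was -0.68 for treated (SE 0.27, adjusted p = 0.12) and -0.84 for untreated against db/+ hearts (SE 0.25, adjusted p = 0.057). Without untreated replicate 3, which enters the shared estimate of spread, both passed (-0.68 with adjusted p = 0.011, and -1.13 with adjusted p = 0.00076). At a dimmer tested probe the differences from db/+ were -0.13 and -0.05 (adjusted p = 0.84 and 0.94).

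Col1a1, the main chain of type I collagen, had levels of -2.89, -2.79, -3.07 and -2.98 in treated, -4.13, -3.65, -2.57, -3.39 and -3.72 in untreated and -2.75, -2.69, -4.0, -3.62 and -3.06 in db/+ hearts. The treated hearts were tightly grouped inside the range of both other groups. Treated and untreated hearts differed by 0.56 (95% confidence interval -0.10 to 1.21, adjusted p = 0.64). Its partner chain Col1a2 went the other way, with -0.40 (95% confidence interval -0.89 to 0.08, adjusted p = 0.65), and at a second bright probe of Col1a1 the difference was -0.13. The spots of Col1a2 and Sparc on db/+ replicate 2 were marked as outliers, so their db/+ values rest on 4 hearts. Col5a1 and Col5a2, which set the width of the fibrils, differed by 0.30 and 0.35 between treated and untreated hearts and by 0.06 and -0.14 between untreated and db/+ hearts. With normexp and loess the last of these, that of Col5a2, was -0.65 (adjusted p = 0.12). In untreated hearts, replicate 3 was the highest for 9 of the 14 collagen chains and replicate 1 the lowest for 10. In db/+ hearts, replicate 3 was the lowest for 10.

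**Figure D3:**
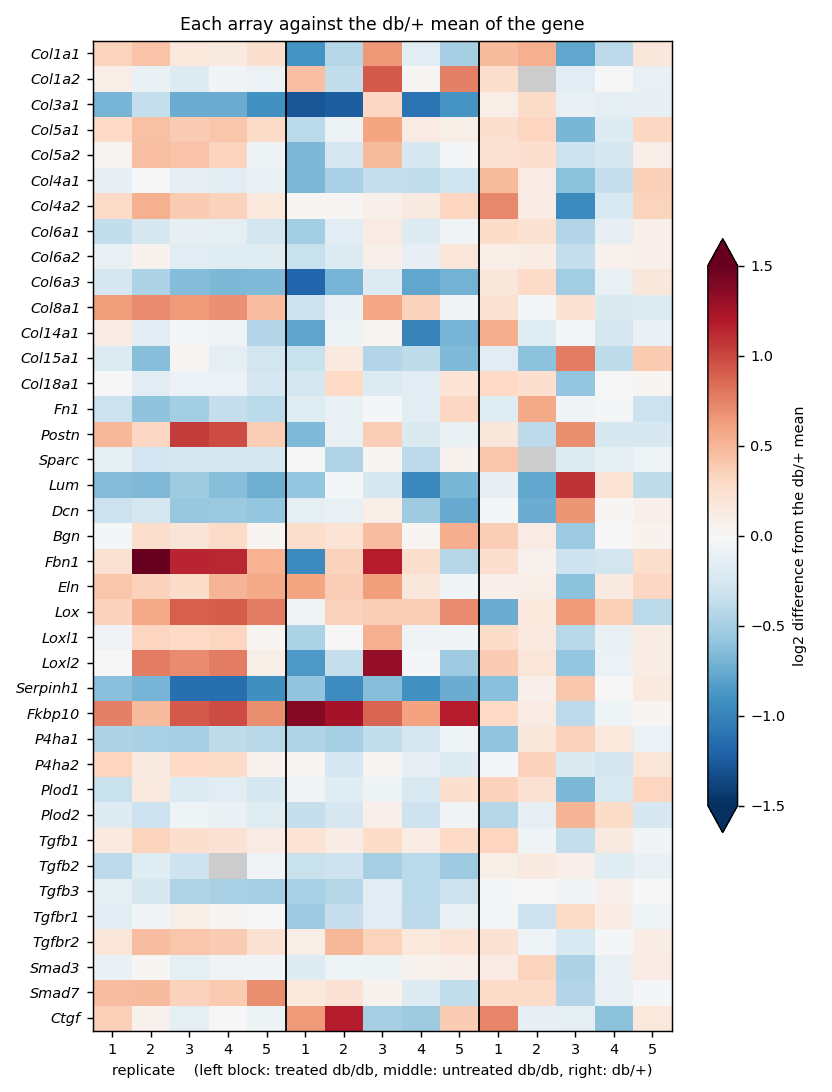
log2 difference of each array (columns, replicates 1 to 5 of treated db/db, untreated db/db and db/+ hearts from left to right) from the mean of the db/+ hearts for each of the 39 genes. Red is higher, blue lower, gray a spot left out as an outlier, and colours saturate at 1.5. Fkbp10 is red and Serpinh1 blue throughout the db/db arrays, and untreated replicate 1 and db/+ replicate 3 are blue for most collagen chains.

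Of the other collagens, Col6a3 was lower in untreated db/db hearts and Col8a1 higher in treated db/db hearts. Col6a3 had levels of -1.37, -1.58, -1.78 and -1.78 in treated, -2.31, -1.82, -1.31, -1.9 and -1.83 in untreated and -0.95, -0.84, -1.64, -1.23 and -0.95 in db/+ hearts. Between untreated and db/+ hearts, replicate 3 of each lay in the other group's range, and the remaining hearts were apart. Col6a3 was 1.64-fold lower in untreated than in db/+ hearts (log2 difference -0.71, SE 0.18, adjusted p = 0.034). This call lay close to the threshold. Without db/+ replicate 1, 2, 4 or 5 or untreated replicate 1, 2, 4 or 5 the adjusted p was 0.053 to 0.075. Treated hearts were -0.51 from db/+ hearts (adjusted p = 0.12). Col6a1 and Col6a2, the other chains of the same protein, differed by -0.16 and -0.08 between untreated and db/+ hearts (95% confidence intervals -0.47 to 0.15 and -0.34 to 0.18), and a dimmer probe of Col6a2 by -0.56 (adjusted p = 0.065). The Col6a3 probe lies at chr1:92597492-92597551.

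Col8a1 had levels of -1.09, -1.0, -1.05 and -1.25 in treated, -2.04, -1.82, -1.14, -1.37 and -1.77 in untreated and -1.49, -1.74, -1.5, -1.93 and -1.92 in db/+ hearts. All treated hearts were above all db/+ hearts, and of the untreated hearts replicate 3 alone reached the treated range. Col8a1 was 1.53-fold higher in treated than in db/+ hearts (log2 difference 0.62, SE 0.17, adjusted p = 0.041). Against untreated hearts the difference missed the threshold (0.53, unadjusted p = 0.0081, adjusted p = 0.45). Without db/+ replicate 2, 4 or 5, untreated replicate 5 or treated replicate 1, 2 or 5, its adjusted p against db/+ was 0.05 to 0.1. A second bright probe had a log2 difference of 0.44 from db/+ (adjusted p = 0.072). The probe lies at chr16:57548065-57548124.

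Col4a1, a chain of the basement membrane, had levels of 1.2, 1.33, 1.17 and 1.22 in treated, 0.65, 0.83, 0.97, 0.95 and 1.02 in untreated and 1.8, 1.45, 0.70, 0.98 and 1.68 in db/+ hearts. All treated hearts were above all untreated hearts, and the db/+ hearts were spread over both ranges, with replicates 3 and 4 low. Treated and untreated hearts differed by 0.34 (95% confidence interval -0.06 to 0.75, adjusted p = 0.65), and untreated and db/+ hearts by -0.44 (adjusted p = 0.14, and -0.59 with adjusted p = 0.036 without db/+ replicate 3). Another bright probe of Col4a1 gave 0.32 and -0.02 in these comparisons. Its partner Col4a2 differed by 0.23 and 0.11, and the second turned to -0.30 with slide as a fixed block. Col14a1, a collagen that binds to the surface of fibrils, had levels of 4.85, 4.56, 4.69 and 4.28 in treated, 3.94, 4.66, 4.76, 3.72 and 4.03 in untreated and 5.27, 4.55, 4.71, 4.48 and 4.63 in db/+ hearts. Untreated replicates 1, 4 and 5 were the lowest of all hearts, and the difference from db/+ was -0.51 (adjusted p = 0.15). Its direction turned with normexp and loess, under which Col14a1 differed from db/+ by 1.1 in treated (adjusted p = 0.23) and by 0.92 in untreated hearts (adjusted p = 0.25). Col15a1 and Col18a1, which link basement membranes to the matrix around them, had differences between -0.33 and 0.04 in the 3 comparisons, and none passed. With normexp and loess Col15a1 also turned, to 0.81 in treated and 0.90 in untreated against db/+ hearts (adjusted p = 0.36 and 0.25), and Col18a1 moved to -0.51 and -0.41 (adjusted p = 0.1 and 0.11). Under the same setting Col4a1 was -0.23 between untreated and db/+ hearts (adjusted p = 0.46).

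The glycoproteins, proteoglycans and elastic fibre genes held no call. Fn1, the adhesive glycoprotein fibronectin, had levels of -3.17, -3.45, -3.28 and -3.25 in treated, -3.03, -2.94, -2.86, -3.0 and -2.53 in untreated and -3.03, -2.28, -2.89, -2.87 and -3.16 in db/+ hearts. All treated hearts were below all untreated and all db/+ hearts. The log2 difference of treated hearts was -0.41 from untreated (unadjusted p = 0.022, adjusted p = 0.5) and -0.44 from db/+ hearts (adjusted p = 0.099). A second bright probe had -0.40 in both comparisons. Fn1 in untreated hearts was -0.03 from db/+ hearts (95% confidence interval -0.35 to 0.30).

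Postn, periostin, a matricellular protein secreted by activated fibroblasts, had levels of 1.94, 1.76, 2.46 and 1.82 in treated, 0.79, 1.34, 1.82, 1.23 and 1.35 in untreated and 1.62, 1.05, 2.15, 1.2 and 1.21 in db/+ hearts. The averaged treated sample was the highest of all, and untreated replicate 3 and db/+ replicate 3 reached the treated range. Treated hearts were 1.61-fold above untreated hearts (0.69, 95% confidence interval 0.17 to 1.21, unadjusted p = 0.013, adjusted p = 0.46) and 0.55 above db/+ hearts (adjusted p = 0.16), and with normexp and loess the difference from db/+ was 0.87 (adjusted p = 0.015). Fbn1, fibrillin, had the largest difference of the 39 genes between treated and untreated hearts, 0.78, with a 95% confidence interval of -0.02 to 1.57. Its untreated hearts ran from -0.94 to 1.2.

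The small proteoglycans Lum and Dcn, which coat collagen fibrils, differed from db/+ hearts by -0.66 and -0.43 in treated and by -0.50 and -0.29 in untreated hearts (adjusted p = 0.18 to 0.44). With normexp and loess Lum was 0.02 from db/+ in treated and 0.20 in untreated hearts (adjusted p = 0.97 and 0.59), and with slide as a fixed block 0.28 and 0.10, so that its direction turned under both. The difference of Dcn in treated hearts turned to 0.23 under the slide block. Here db/+ replicate 3 was the highest heart of all, at 6.73 and 2.93, while it was the lowest db/+ heart for 10 of the 14 collagen chains. Bgn, Sparc and Eln, the genes of biglycan, osteonectin and elastin, had differences between -0.24 and 0.43, and the highest of these was that of Eln between treated and db/+ hearts (adjusted p = 0.14), whose treated hearts were wholly above. Bgn in untreated against db/+ hearts was 0.30, and -0.05 with normexp and loess (adjusted p = 0.83). At a second bright probe Sparc was further from db/+ hearts, by -0.445 in untreated (adjusted p = 0.067) and -0.35 in treated hearts (adjusted p = 0.15).

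**Figure D4:**
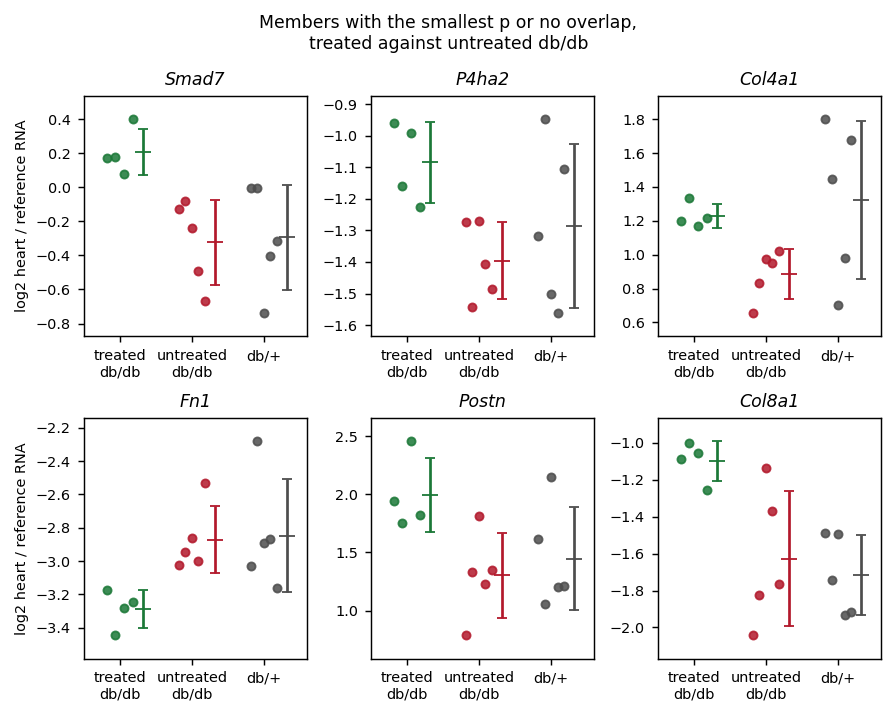
Level of each sample (vertical axis, log2 ratio of heart to reference) for 6 genes with the smallest p or no overlap between treated and untreated db/db hearts, with the mean and SD of each group. Treated hearts lie above untreated hearts for Smad7, P4ha2 and Col4a1 and below them for Fn1. None had an adjusted p under 0.05 (0.43 to 0.65).

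Slide 1 held db/+ hearts alone and slide 4 treated hearts alone, so the slides were set against these differences. Within slide 2, untreated hearts differed from db/+ replicate 5 by 1.13 for Fkbp10, -0.88 for Serpinh1, -0.28 for Tgfb2, -0.36 for Tgfb3 and -0.86 for Col6a3, each in the direction of the whole comparison. With slide as a fixed block their adjusted p was 0.27, 0.49, 0.82, 0.63 and 0.6, so none passed. Of all probes, 18 were called higher and 16 lower under this block. The sum of the differences within slides 2 and 3 was 0.86 for Fkbp10, 0.77 for Col8a1, -0.71 for Serpinh1 and -0.19 for Tgfb3 in treated against db/+ hearts, with adjusted p of 0.96, 0.99, 0.99 and 1 under the block. In that comparison 0 of all probes were called higher and 4 lower under the block. Within slide 3, treated replicates 1 and 2 differed from untreated replicates 4 and 5 by 0.75 for Smad7, 0.52 for Col8a1, 0.56 for Postn and -0.54 for Fn1. Of the 39 genes, 31 kept their sign within slide 2, 34 within slide 3 and 33 in their sum, on arrays that also enter the whole comparison.

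**Figure D5:**
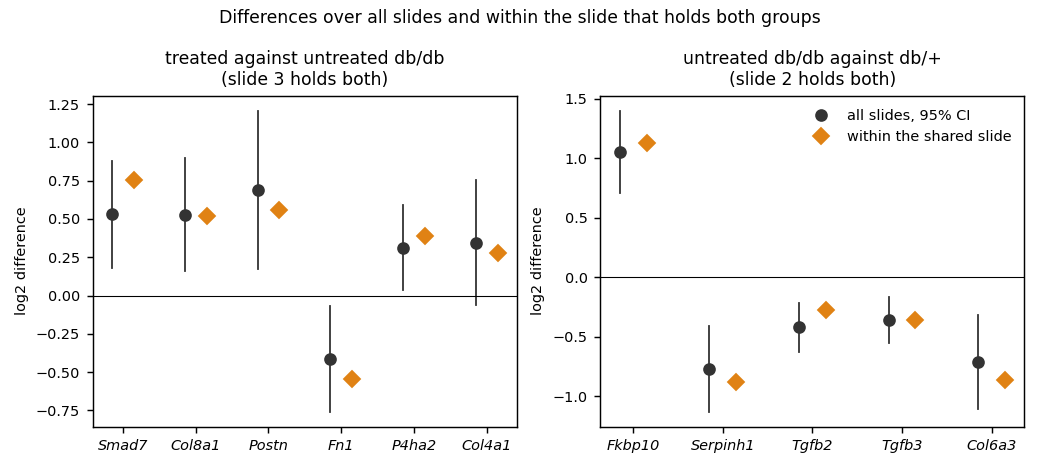
log2 difference (vertical axis) over all slides (black circles, with 95% confidence intervals) and within the 1 slide that holds both groups (orange diamonds). The left panel sets treated against untreated db/db hearts on slide 3 for 6 uncalled genes, the right panel untreated db/db against db/+ hearts on slide 2 for the 5 called genes. Every diamond lies on the same side of 0 as its circle.

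The spread between hearts differed among the groups. The median SD of the 39 genes was 0.14 in treated, 0.26 in untreated and 0.33 in db/+ hearts, where that of all tested probes was 0.16, 0.21 and 0.27. Of the 39 genes, 29 were least spread in treated hearts and 24 most spread in db/+ hearts. The treated value includes 1 average of 2 arrays.

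All 9 fibroblast markers, 2 of which are Lum and Dcn, were above background. Their mean level was -0.14 to 0.44 in treated, 0.34 to 0.79 in untreated and 0.53 to 1.05 in db/+ hearts, and none of the 9 was called. The marker ranges run over single arrays, with treated replicates 3 and 4 kept apart. Spots marked as outliers were left out, so the means of 2 arrays can rest on different markers. For the fibroblast markers treated replicates 3 and 4, counted as 1 sample elsewhere, were the ends of the treated range (-0.14 in replicate 3 and 0.44 in replicate 4). Whether an outlier spot set them apart was not tested. The smooth muscle and pericyte markers, 8 of 8 above background, had means of 1.45 to 1.67 in treated, 1.54 to 1.93 in untreated and 1.39 to 2.13 in db/+ hearts. Of 11 hepatocyte markers on the array 8 were tested, with means of 1.33 to 3.83 in treated, 1.68 to 6.17 in untreated and 0.82 to 2.03 in db/+ hearts, and 3 were called higher in untreated hearts. This mean includes markers that were dim on many arrays, such as Cps1 and Apoc3, well above background on only 5 and 6 arrays. With this mean as a covariate, 135 of all 27593 probes were called higher and 105 lower in untreated against db/+ hearts (1206 and 935 without it). None of the 5 calls in untreated hearts passed with the covariate, while each difference from db/+ hearts kept its direction. It was 0.79 for Fkbp10 (adjusted p = 0.11, against 1.05 without the covariate), -0.77 for Serpinh1 (adjusted p = 0.19, against -0.77), -0.39 for Tgfb2 (adjusted p = 0.24, against -0.42), -0.44 for Tgfb3 (adjusted p = 0.15, against -0.36) and -1.02 for Col6a3 (adjusted p = 0.072, against -0.71). In treated hearts Col8a1 differed from db/+ hearts by 0.64 with the covariate, which did not pass (adjusted p = 0.05), against 0.62 without it. The covariate left 1048 of all probes higher and 847 lower in treated against db/+ hearts. Of 6 tested adipocyte markers 2 were called lower in both db/db groups, and of 8 B and T cell markers 4 were lower in treated and 3 in untreated hearts, with means of -1.94 to -1.76 in treated, -2.05 to -1.45 in untreated and -1.39 to -1.03 in db/+ hearts. Of the adipocyte markers the means were 0.57 to 1.26, 0.67 to 3.02 and 1.73 to 2.97 in the same order of groups. The 2 called adipocyte markers, Adipoq and Cfd, had a heart signal well above background on only 5 and 9 arrays. They were tested because 1 group with enough such arrays is sufficient. On the other arrays their signal was not well above background, so the sizes of their differences from db/+ hearts are uncertain. Of 7 endothelial, 6 macrophage and 7 skeletal muscle markers none was called, and of 6 markers of mesothelium and valve 1 was higher in treated hearts. The part of these markers in the results was not tested.

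Further genes of the same pathways are given from lists chosen by function, with earlier results of these data known. Over all tested probes, 7.76% were called either way in untreated and 8.7% in treated against db/+ hearts. Of 18 other collagen chains tested, 1 was called in each comparison with db/+ hearts. Col8a2, the partner of Col8a1, was lower in treated hearts (log2 difference -0.92, adjusted p = 0.015), and Col23a1, a transmembrane collagen, was higher in untreated hearts (log2 difference 0.40, adjusted p = 0.0085). Of 12 laminins, nidogens and perlecan, none was lower in either db/db group. The laminin chain Lama5 was higher in treated (log2 difference 1.17, adjusted p = 0.015) and in untreated hearts (log2 difference 1.1, adjusted p = 0.015), and Lamc3, another laminin chain, was higher in untreated hearts (log2 difference 0.89, adjusted p = 0.048). Of 16 other enzymes of collagen modification and processing, the procollagen protease Adamts3 was higher in treated (log2 difference 1.01, adjusted p = 0.0056) and untreated hearts (log2 difference 0.70, adjusted p = 0.026), and P4hb, the second subunit of prolyl 4-hydroxylase, was lower in treated hearts (log2 difference -0.40, adjusted p = 0.041).

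Of 29 other matrix glycoproteins and proteoglycans, 2 were higher and 3 lower in treated hearts, and 1 was higher and 1 lower in untreated hearts. Of all tested probes 4.49% were higher and 4.21% lower in treated hearts, and 4.37% and 3.39% in untreated hearts. The calcium-binding glycoprotein Smoc2 was lower in treated (log2 difference -0.77, adjusted p = 0.0053) and in untreated hearts (log2 difference -0.70, adjusted p = 0.0065), and the fibulin Fbln2 was higher in treated (log2 difference 0.62, adjusted p = 0.016) and untreated hearts (log2 difference 0.57, adjusted p = 0.019). The bone proteoglycan Omd was lower (log2 difference -1.37, adjusted p = 0.019) and so was Smoc1 (log2 difference -0.94, adjusted p = 0.022), both in treated hearts. Cspg2, the large proteoglycan versican, was higher there (log2 difference 0.95, adjusted p = 0.025) and is named although it falls outside the rule of 4 genes a list, after its value was seen. Of 23 other genes of the TGF-beta pathway, Smad6, an inhibitory Smad like Smad7, was higher in treated (log2 difference 0.95, adjusted p = 0.002) and untreated hearts (log2 difference 0.82, adjusted p = 0.0033). Tgfb1i1 was lower in treated (log2 difference -0.40, adjusted p = 0.026) and the integrin chain Itgb6, which can activate latent TGF-beta, lower in untreated hearts (log2 difference -1.08, adjusted p = 0.0099). Of 18 genes that TGF-beta induces in other cells, 2 of them among the 39, Id2, an inhibitor of helix-loop-helix factors, was lower in treated (log2 difference -0.49, adjusted p = 0.043) and untreated hearts (log2 difference -0.63, adjusted p = 0.013). The median log2 difference of the 6 lists was between -0.19 and 0.17 in the 3 comparisons, and between treated and untreated hearts none of their genes was called.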

How the data were processed

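RNA of 15 whole hearts, 5 in each of 3 groups, was hybridised to Agilent 2-colour mouse arrays with the heart in Cy5 and a universal reference in Cy3. The deposited scanner files hold, for each spot, the intensity of both dyes after background subtraction and LOWESS dye normalization by Feature Extraction 9.5.1.1, and the log10 ratio of heart to reference that the authors' software computed from them. The deposited value table holds the same log10 ratios. The methods name a human array, whereas the files name a mouse design with mm8 coordinates.

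The log10 ratios were turned into log2 ratios, control spots and the 0.922% of spots marked as outliers were left out, and spots of 1 probe were averaged. Probes whose heart signal was well above background on at least 4 arrays of any group were kept, 27593 of 41174. Treated replicates 3 and 4 were averaged. All 14 samples entered 1 fit with limma 3.58.1 (R 4.3.3), with Benjamini-Hochberg adjustment over all tested probes and a threshold of 0.05, and the script was tested on simulated data. The precision is limited by the number of arrays.

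The 39 genes, the pathway lists and the cell type markers were chosen with earlier results of these data known. All 39 genes are named, and values of every heart are given for called genes and for the 2 uncalled genes of each role with the smallest p. Genes of the pathway lists are named where called, up to 4 for each list and comparison. Some called genes of these lists are not reported here. Alternatives covered background correction, scaling, filters, slide, replicate number, samples, array weights, threshold, hepatocyte markers, probes and each array left out. Keeping the outlier spots was added after the data were seen.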

Additional observations from a re-analysis of the deposited data

Results flagged for a closer look

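In 4 of the 117 combinations of a gene and a group 1 heart lay far from the others by Dixon's test, which flags about 1 in 20 groups by chance. Col3a1 was -1.126 in untreated replicate 3, with the nearest untreated heart at -2.315. Col1a2 was -2.613 in treated replicate 1, with the nearest treated heart at -2.799. Both of the other cases were low values in db/+ replicate 3. Col6a2 was -1.069 there, with the nearest db/+ heart at -0.6475, and Eln was 0.3577, with the nearest at 1.04.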

How the results depend on the processing

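Over 32 alternative settings no called difference changed its direction, and the medians of the 39 genes moved by less than the spread between hearts. Not all of these could change a direction. The deposited value table and the threshold of 0.1 hold the same differences as the main fit. The differences within the shared slide equal those with slide as a fixed block. Of the 117 differences of single genes, uncalled ones changed sign in 25 settings, most often under normexp with loess (20) and with slide as a fixed block (19). In untreated against db/+ hearts, where 1 gene was called higher and 4 lower, 0 and 0 were called with slide as a fixed block or with the hepatocyte markers as a covariate. Of all probes, 18 were higher and 16 lower with that block, and 135 and 105 with that covariate. With only the 2 groups compared (402 of all probes lower) or with db/+ replicate 3 and untreated replicate 2 both left out (595), 2 genes were lower. In treated against db/+ hearts, where 2 were called in each direction, slide as a fixed block left 0 and 0 (0 and 4 of all probes). Slide as a random block, whose estimated correlation was -0.114, gave 4 higher and 5 lower, and a threshold of 0.1 gave 4 and 4. The calls over all probes rose too, from 1239 higher and 1162 lower. They were 2498 and 2629 with the random block, and 2224 and 2253 at that threshold. With treated replicates 3 and 4 as separate samples, 2 near-identical arrays count as 2 hearts. In treated against db/+ hearts 4 genes were higher with that setting (1913 of all probes). There was 1 with no filter on dim probes (1076 of 41107 probes) or with the hepatocyte covariate (1048 of 27593). Under normexp with loess (452 of all probes lower), under scaling between arrays (945) and with both hearts left out (804), 1 gene was lower. Leaving out 1 array at a time gave 2 to 5 lower in untreated hearts, and 0 to 3 higher and 1 to 3 lower in treated hearts, against db/+ hearts. Of all probes it gave 498 to 1285 lower in untreated hearts, and 600 to 1454 higher and 469 to 1431 lower in treated hearts. Between treated and untreated hearts 0 of the 39 genes were called each time. The causes of these changes were not tested.

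The labels do not say whether equal replicate numbers pair the hearts. The correlations of the deviations of hearts with equal numbers ran from -0.19 to 0.047. With the replicate block, 1 gene was higher (Fkbp10, adjusted p = 0.0074) and 0 lower in untreated against db/+ hearts, and 0 and 0 were called in treated against db/+ hearts.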
